A study of Rattus norvegicus with 12 samples.

Results

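The mitochondrial ribosomal protein genes were followed in rat kidney after unilateral ischemia reperfusion injury (IRI), in which the blood supply of 1 kidney is stopped and then restored. The members were chosen by name, as every gene whose name in the scanner files begins with Mrpl or Mrps and a digit. They comprised 70 of the 26456 gene names on the array, 42 with Mrpl names (large subunit) and 28 with Mrps names (small subunit), measured by 81 of 30367 non-control probes. RNA came from the left kidney of female F344 rats aged 10 weeks, with 4 rats in each of 3 groups. The IRI day 7 group was killed 7 days after left-sided IRI, the IRI day 3 group 3 days after left-sided IRI, and the sham group 7 days after a sham operation. No sham kidney of day 3 stood beside the day 3 injury. No genetic change or drug is named for any group, and the length of the ischemia and the state of the right kidney are not given in the sources used here. Each kidney was hybridised to its own 1-colour Agilent array with 60-base probes, and the number of arrays limits the precision of every value below.

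Mitochondria carry their own ribosome, which is built from RNA encoded in mitochondrial DNA and from proteins encoded in the nucleus, made in the cytosol and imported. It translates only the few mRNAs of mitochondrial DNA, all of which encode core subunits of the respiratory chain and ATP synthase, so its output has to be matched by nuclear-encoded partner subunits. Some of its proteins descend from the bacterial ribosome, and others are found only in mitochondria. The tubules of the kidney, above all the proximal tubule, are dense in mitochondria because salt and solute reabsorption is driven by ATP, and tubule mitochondria are an early site of damage in ischemia.

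A level is given as the log2 signal minus the array's own 75th percentile of signal, so that 0 is the 75th percentile of that array. Levels of different genes are not compared because each probe binds with its own strength. Of the 70 members, 68 had a probe that all 4 arrays of some group showed well above background and were tested among 18506 genes, and 63 were well above background on all 12 arrays. No member spot was saturated. Genes were tested with limma on all 12 arrays, and a gene was called at a Benjamini-Hochberg adjusted p under 0.05 over all tested genes. Before scaling, the 75th percentile averaged 502 intensity units on IRI day 7 arrays, 714 on IRI day 3 arrays and 328 on sham arrays. Each pair of groups differed in this (two-sided exact permutation p = 0.0286, the smallest that 4 against 4 arrays allow), so all changes below are relative to each array's own 75th percentile. Over the 18506 tested genes, replicate arrays correlated with r of 0.950 to 0.972 at IRI day 7, 0.967 to 0.984 at IRI day 3 and 0.942 to 0.967 in sham.

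The tissue was recognisable as kidney by all 7 defining markers in every group, and markers of its cell types moved strongly with injury. At IRI day 3 all 7 kidney markers were lower than in sham, with a median log2 fold change of -2.35, including Umod, the urinary protein of the thick ascending limb (-5.82 ± 0.50 (SE), adjusted p = 8.38e-06 by limma). Of 10 proximal tubule markers 8 fell and none rose at day 3, and their summed level, in multiples of the 75th percentile, was 137 to 260 at IRI day 7, 42.7 to 119 at IRI day 3 and 374 to 388 in sham. Of 8 tested macrophage markers 6 rose and none fell, with sums of 19.2 to 26.7 at IRI day 7, 24.9 to 36.5 at IRI day 3 and 10.1 to 15 in sham, while Cd163 and Mrc1 did not pass the filter. All 9 tested markers of dividing cells rose, with sums of 3.27 to 7.47 at IRI day 7, 19.2 to 31.4 at IRI day 3 and 1.71 to 2.67 in sham. Top2a, a topoisomerase of dividing cells, was not well above background on any sham array and was at least 11.2-fold higher at IRI day 3. In whole kidney, fewer cells of a type and less RNA per cell cannot be told apart, and the part of these shifts in cell makeup in the results below was not tested.

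Against this background the mitochondrial ribosomal protein genes moved little and in both directions. At IRI day 3 against sham, 13 of the 68 tested members rose and 9 fell, a called share of 32.4%, against 57.3% of all tested genes (24.2% higher and 33.1% lower). The median log2 fold change of the members was 0.11, against -0.13 over all genes, and 2 members (2.94%) changed at least 2-fold in the fit, against 32.5% of all genes. Both, Mrps27 and Mrpl46, had sham arrays that were not well above background. For 22 members every IRI day 3 array lay to 1 side of every sham array (51.7% of all genes). At IRI day 7 against sham, 2 members rose and 1 fell, or 4.41% of them, against 18.8% of all genes (8.21% higher and 10.6% lower). The median was 0.01, against -0.07 over all genes, and groups did not overlap for 7 members (21.7% of all genes). Between IRI day 7 and IRI day 3, 2 members were higher and 5 lower at day 7, 10.3% of the members against 31.4% of all genes (18% higher and 13.4% lower), and groups did not overlap for 13 members (36.1% of all genes). In all, 24 members were called in at least 1 comparison and 44 in none.

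The narrow spread held over the whole set. At IRI day 3, 46 of 68 members (67.6%) stayed within 0.5 of sham on the log2 scale, against 36.5% of all genes, and at IRI day 7 the shares were 85.3% of members and 65.2% of all genes. Between IRI day 7 and IRI day 3 they were 83.8% and 53.9%. The median standard error of a log2 fold change was 0.18 among members and 0.23 over all genes, so the lower called share of the members did not go with larger errors. Of the 68 tested members, 34 were among the 4627 brightest genes, where 65.9% of all genes were called at IRI day 3 and 10 of these 34 members were.

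**Figure D1:**
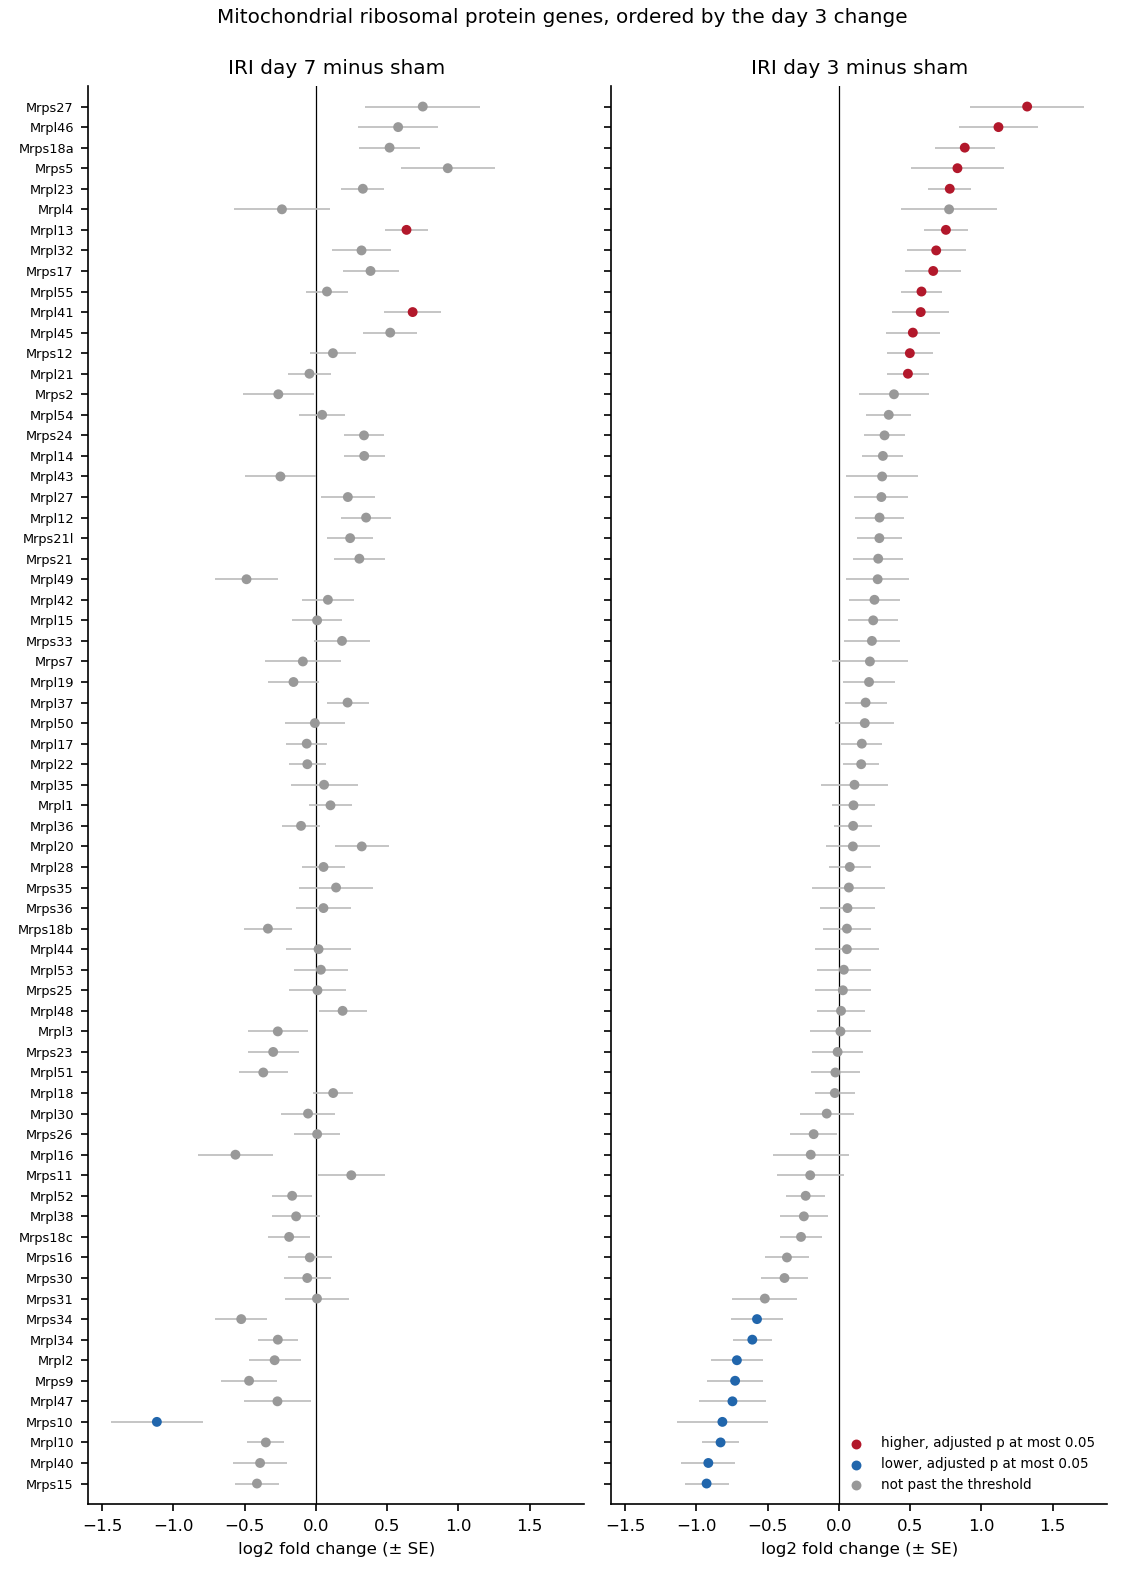
Log2 fold change of each of the 68 tested members against sham, IRI day 7 in the left panel and IRI day 3 in the right, with genes ordered by their day 3 change and bars showing the standard error of the limma fit. Red points passed the threshold as higher, blue as lower and grey points did not pass; at IRI day 3 the points run from -0.93 for Mrps15 to 1.32 for Mrps27 and 22 are coloured, and at IRI day 7 only Mrpl13, Mrpl41 and Mrps10 are.

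The large subunit proteins with a bacterial counterpart numbered 26, of which 5 rose and 4 fell at IRI day 3 (34.6%, against 57.3% of all genes), with a median log2 fold change of 0.13. Mrpl23 binds at the exit of the tunnel through which the new peptide leaves (probe at chr1:202787622-202787681, plus strand, rn4). Its levels were 1.16, 1.03, 1.36 and 1.0 in IRI day 7 kidneys, 1.44, 1.45, 1.67 and 1.78 in IRI day 3 kidneys and 1.01, 0.79, 0.54 and 0.89 in sham kidneys. All 4 IRI day 3 arrays lay above all sham arrays and above all IRI day 7 arrays, and the highest sham array exceeded only the lowest IRI day 7 array. The day 3 log2 fold change was 0.78 ± 0.15 (SE), adjusted p = 0.001 by limma.

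Mrpl13, a protein of the body of the large subunit (probe at chr7:92047346-92047405, minus strand, rn4), had levels of 1.54, 1.48, 1.40 and 1.53 in IRI day 7 kidneys, 1.54, 1.83, 1.36 and 1.70 in IRI day 3 kidneys and 1.05, 1.0, 0.53 and 0.84 in sham kidneys. Both injured groups stood apart from sham and overlapped each other. It rose at IRI day 3, with a log2 fold change of 0.75 ± 0.15 (SE), adjusted p = 0.0014, and at IRI day 7, with 0.64 ± 0.15 (SE), adjusted p = 0.0151 by limma. Mrpl21 (probe at chr1:205821742-205821801, plus strand, rn4) had levels of -0.66, -0.68, -0.58 and -0.24 in IRI day 7 kidneys, -0.21, 0.13, -0.12 and 0.16 in IRI day 3 kidneys and -0.48, -0.41, -0.69 and -0.40 in sham kidneys, with the day 3 arrays above all others. It rose at IRI day 3 by 0.48 ± 0.15 (SE), adjusted p = 0.0157 on the log2 scale by limma. The adjusted p was 0.05001 without IRI day 3 replicate 4. Mrpl32, a protein that is cut to its mature form inside mitochondria by the m-AAA protease before it joins the ribosome, also rose (0.68, adjusted p = 0.0145 by limma).

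By its brighter probe Mrpl10 fell, while its other probe did not pass the threshold. It forms, with copies of Mrpl12, the stalk that recruits translation factors to the ribosome (brighter probe at chr10:85770281-85770340, plus strand, rn4). Its levels were 3.52, 3.37, 3.54 and 3.70 in IRI day 7 kidneys, 3.11, 2.90, 3.09 and 3.1 in IRI day 3 kidneys and 3.88, 3.85, 4.07 and 3.72 in sham kidneys, and no pair of groups overlapped. The IRI day 3 log2 fold change was -0.83 ± 0.13 (SE), adjusted p = 2.46e-04 by limma, and at IRI day 7 the value was -0.35 ± 0.13 (SE), adjusted p = 0.078. The other probe, above background on all 12 arrays, gave -0.03 ± 0.22 (SE), adjusted p = 0.931 at IRI day 3 by limma. Its stalk partner Mrpl12 had levels of 2.0, 1.66, 1.51 and 2.12 in IRI day 7 kidneys, 1.60, 1.69, 2.02 and 1.71 in IRI day 3 kidneys and 1.60, 1.33, 1.27 and 1.68 in sham kidneys. Those groups overlapped, with log2 fold changes of 0.29 ± 0.17 (SE), adjusted p = 0.178 at IRI day 3 and 0.35 ± 0.17 (SE), adjusted p = 0.177 at IRI day 7 by limma. Mrpl11, the other protein at the base of the stalk, was not analysed here.

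Mrpl47, which sits near the tunnel exit (probe at chr2:118935035-118935094, minus strand, rn4), had levels of -1.50, -0.95, -0.97 and -0.83 in IRI day 7 kidneys, -1.37, -1.63, -1.27 and -1.89 in IRI day 3 kidneys and -1.09, -0.99, -0.13 and -0.95 in sham kidneys. All IRI day 3 arrays were below all sham arrays, and 1 sham array stood far above the other sham arrays. Its IRI day 3 log2 fold change was -0.75 ± 0.24 (SE), adjusted p = 0.0179 by limma. Without IRI day 3 replicate 4 the adjusted p was 0.0572. Mrpl2 (-0.72 by its brighter probe, adjusted p = 0.00575 by limma) and Mrpl34 (-0.61, adjusted p = 0.00284 by limma), both large subunit proteins of bacterial descent, fell as well, with no overlap between IRI day 3 and sham. Of the 5 members placed around the tunnel exit, 2 rose and 1 fell at IRI day 3, a share near the 57.3% called among all genes.

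Of 18 large subunit proteins listed as mitochondria-specific, 4 rose and 1 fell at IRI day 3 (27.8% called, against 57.3% of all genes). Their median was 0.18, and those that rose include Mrps18a, described below. Mrpl46 (probe at chr1:134499229-134499288, minus strand, rn4) had levels of -2.04, -2.72, -2.55 and -2.79 in IRI day 7 kidneys, -2.13, -1.89, -1.89 and -2.01 in IRI day 3 kidneys and -3.18, -3.88, -2.32 and -3.02 in sham kidneys. Every IRI day 3 array was above every sham array, and 1 of the 4 sham arrays was not well above background. The IRI day 3 log2 fold change was 1.12 ± 0.28 (SE), adjusted p = 0.0049 by limma. Normexp background correction turned it to -0.42. Another large subunit gene, Mrpl55, was counted among the 26 with a bacterial counterpart and not among these 18. Mrpl55 (probe at chr10:45508993-45509052, plus strand, rn4) had levels of 1.02, 0.71, 0.66 and 0.98 in IRI day 7 kidneys, 1.16, 1.29, 1.44 and 1.5 in IRI day 3 kidneys and 0.92, 0.82, 0.53 and 0.79 in sham kidneys, with the IRI day 3 arrays above all arrays of both other groups. It rose at IRI day 3 by 0.58 ± 0.15 (SE), adjusted p = 0.00521 by limma.

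Mrpl41 (probe at chr3:5120436-5120495, minus strand, rn4) had levels of 2.96, 2.55, 2.83 and 3.04 in IRI day 7 kidneys, 2.47, 2.74, 3.00 and 2.75 in IRI day 3 kidneys and 1.83, 2.57, 1.86 and 2.39 in sham kidneys. The highest sham array overlapped the lower arrays of both injured groups. By this brighter probe it passed the threshold as higher at IRI day 3 (0.57 ± 0.20 (SE), adjusted p = 0.0275 by limma) and at IRI day 7 (0.68 ± 0.20 (SE), adjusted p = 0.0354 by limma). The other probe, above background on all 12 arrays, gave 0.20 ± 0.22 (SE), adjusted p = 0.458 at IRI day 3 by limma. At IRI day 7 that probe gave 0.60 ± 0.22 (SE), adjusted p = 0.0755 by limma. Leaving out 1 array ended the day 3 call in 5 of 12 fits (IRI day 3 replicates 2, 3 and 4, sham replicates 1 and 3, adjusted p up to 0.0808 by limma). It ended the day 7 call in 6 (IRI day 7 replicates 1, 3 and 4, IRI day 3 replicate 2, sham replicates 1 and 3, adjusted p up to 0.0934 by limma). Mrpl45, the protein that ties the ribosome to the inner membrane at the tunnel exit, rose at IRI day 3 (0.52 ± 0.19 (SE), adjusted p = 0.0344 by limma). That call was lost without any 1 of the IRI day 3 arrays or of sham replicates 1, 2 and 3 (adjusted p up to 0.0913 by limma). At IRI day 7 its value was 0.52 ± 0.19 (SE), adjusted p = 0.0753. Mrpl40, encoded beside the histone chaperone gene Hira, was the member of this class that fell. By its brighter probe its levels were 0.68, 0.88, 0.48 and 0.91 in IRI day 7 kidneys, 0.15, 0.15, 0.15 and 0.40 in IRI day 3 kidneys and 0.63, 1.31, 1.04 and 1.52 in sham kidneys. All IRI day 3 arrays were below all sham arrays, and the IRI day 3 log2 fold change was -0.92 ± 0.19 (SE), adjusted p = 0.00158 by limma.

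Of 13 tested small subunit proteins of bacterial descent, 3 rose and 3 fell at IRI day 3 (46.2% called, against 57.3% of all genes). Their median was 0.22. Mrps15 (probe at chr5:145408255-145408314, plus strand, rn4) had levels of 3.78, 3.81, 3.85 and 3.88 in IRI day 7 kidneys, 3.55, 3.21, 3.25 and 3.25 in IRI day 3 kidneys and 4.16, 4.23, 4.62 and 3.95 in sham kidneys. No pair of groups overlapped, with IRI day 7 between IRI day 3 and sham. Its IRI day 3 log2 fold change was -0.93 ± 0.15 (SE), adjusted p = 3.70e-04 by limma, and its IRI day 7 value was -0.41 ± 0.15 (SE), adjusted p = 0.0801. Mrps10 (probe at chr9:9077319-9077378, minus strand, rn4) had levels of -3.36, -2.09, -1.95 and -2.86 in IRI day 7 kidneys, -2.47, -2.42, -1.88 and -2.29 in IRI day 3 kidneys and -1.85, -0.93, -1.16 and -1.85 in sham kidneys, and both injured groups lay below sham without overlap. It fell at IRI day 3 (-0.82 ± 0.32 (SE), adjusted p = 0.0461 by limma) and, 2.17-fold, at IRI day 7 (-1.12 ± 0.32 (SE), adjusted p = 0.0324 by limma). The day 3 call was lost without IRI day 3 replicate 1, 2 or 4, IRI day 7 replicate 4 or sham replicate 2 or 3 (adjusted p up to 0.12 by limma). The day 7 call was lost without IRI day 7 replicate 1 or 4 or sham replicate 2 or 3 (adjusted p up to 0.0823 by limma). Mrps9 also fell (-0.73, adjusted p = 0.00784 by limma).

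In the same class Mrps12, which reaches into the decoding centre, rose (0.50, adjusted p = 0.0203 by limma), as did Mrps17 (0.66, adjusted p = 0.0127 by limma). Mrps5 had levels of -2.0, -1.63, -2.11 and -1.01 in IRI day 7 kidneys, -2.01, -1.80, -1.92 and -1.41 in IRI day 3 kidneys and -2.82, -2.01, -2.15 and -3.49 in sham kidneys. The lowest IRI day 3 array and the highest sham array both stood at -2.01, and the log2 fold change was 0.83 ± 0.33 (SE), adjusted p = 0.047 by limma. Leaving out any IRI day 3 array, IRI day 7 replicate 1 or 2, or sham replicate 1 or 4 ended this call (adjusted p up to 0.133 by limma). Normexp background correction gave -0.18.

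Of 9 tested small subunit proteins listed as mitochondria-specific, 1 rose and 1 fell at IRI day 3 (22.2% called, against 57.3% of all genes). Their median was 0.03. Mrps27, a protein of the RNA-binding pentatricopeptide repeat family (probe at chr2:30386318-30386377, plus strand, rn4), had levels of -3.20, -3.01, -3.68 and -3.04 in IRI day 7 kidneys, -2.86, -2.44, -2.71 and -2.63 in IRI day 3 kidneys and -4.14, -5.15, -2.62 and -4.01 in sham kidneys. The IRI day 3 arrays were close together and the sham arrays far apart. Of the 4 sham arrays 2 were not well above background, and the highest sham array overlapped day 3. The fitted log2 fold change was 1.32 ± 0.40 (SE), adjusted p = 0.0144 by limma. This size rests in part on sham signal at background, and normexp background correction turned it to -0.48. Mrps34 fell (-0.57, adjusted p = 0.0182 by limma).

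**Figure D2:**
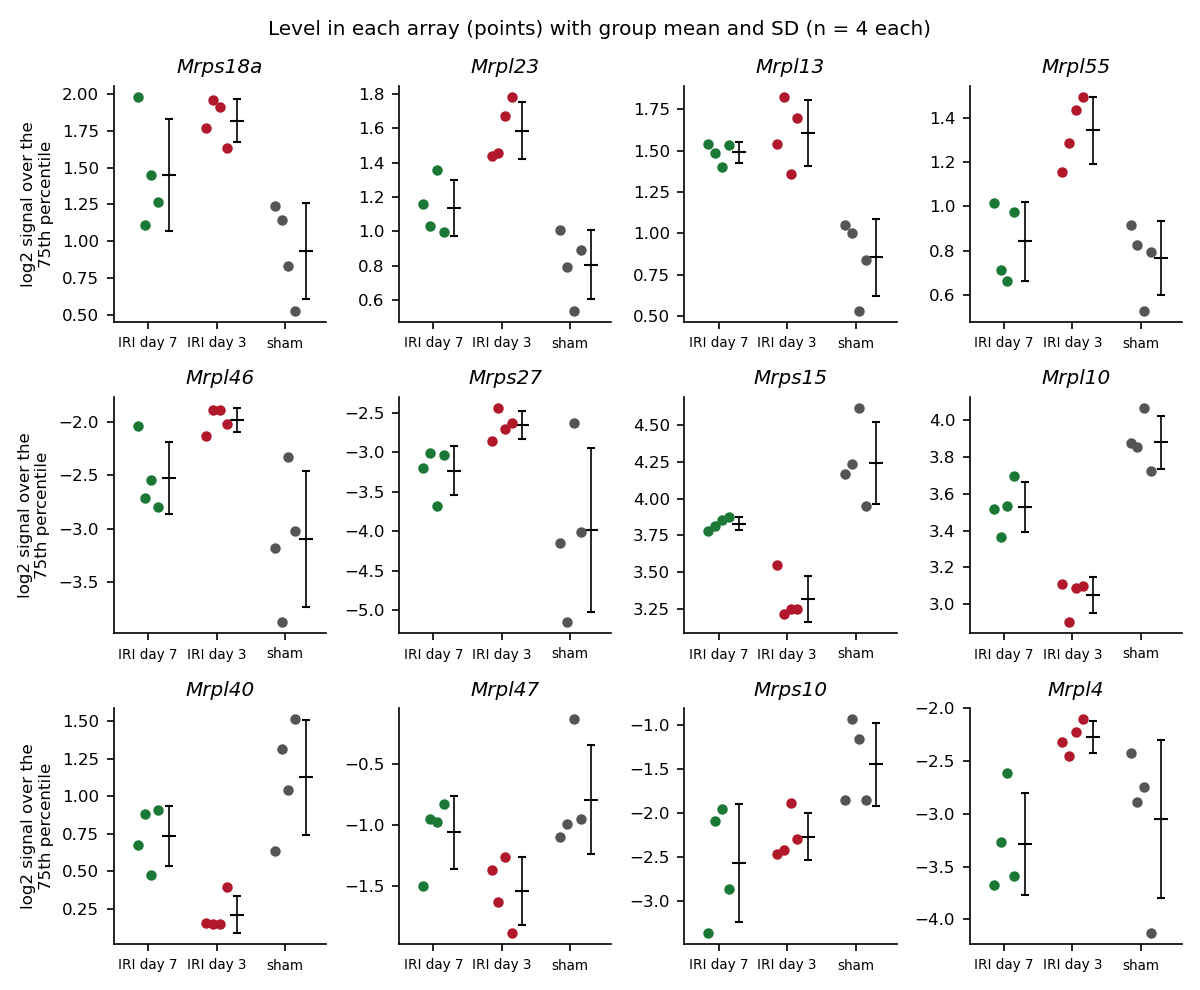
Level of 12 members on each array, in log2 signal relative to the array's 75th percentile, with IRI day 7 left, IRI day 3 in the middle and sham right; points are arrays (n = 4 a group) and bars are the mean and SD. For Mrps15 and Mrpl10 the 3 groups do not overlap, with IRI day 3 lowest, while for Mrpl23 and Mrpl55 IRI day 3 lies above both other groups.

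The genes of the 3 mammalian proteins that descend from a single bacterial small subunit protein had 1 call among them. Mrps18a, the copy that sits in the large subunit (probe at chr9:10419252-10419311, minus strand, rn4), had levels of 1.98, 1.11, 1.45 and 1.27 in IRI day 7 kidneys, 1.77, 1.96, 1.91 and 1.63 in IRI day 3 kidneys and 1.24, 1.15, 0.83 and 0.52 in sham kidneys. All IRI day 3 arrays were above all sham arrays, and it rose (0.88 ± 0.21 (SE), adjusted p = 0.00391 by limma). Mrps18b had levels of -1.38, -1.05, -1.32 and -0.98 in IRI day 7 kidneys, -0.79, -1.01, -0.77 and -0.57 in IRI day 3 kidneys and -0.50, -0.80, -1.07 and -1.01 in sham kidneys, with overlapping IRI day 3 and sham arrays and a log2 fold change of 0.06 ± 0.17 (SE), adjusted p = 0.787 by limma. Mrps18c had levels of 1.57, 1.66, 1.47 and 1.96 in IRI day 7 kidneys, 1.49, 1.55, 1.73 and 1.58 in IRI day 3 kidneys and 1.90, 2.0, 1.56 and 1.96 in sham kidneys, and its log2 fold change was -0.27 ± 0.15 (SE), adjusted p = 0.148 by limma. The difference among the 3 genes was not itself tested. In the class counts above, Mrps18a and Mrps18b stood in the mitochondria-specific lists in spite of this descent, and Mrps18c in the bacterial list.

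At IRI day 3 the smallest fitted log2 fold changes belonged to Mrpl3 (0.01 ± 0.21 (SE), adjusted p = 0.969), Mrps23 (-0.01 ± 0.18 (SE), adjusted p = 0.971) and Mrpl48 (0.02 ± 0.17 (SE), adjusted p = 0.946), all by limma. Those of IRI day 7 belonged to Mrpl50 (-0.01 ± 0.21 (SE), adjusted p = 0.984), Mrps31 (0.01 ± 0.23 (SE), adjusted p = 0.986) and Mrpl15 (0.01 ± 0.17 (SE), adjusted p = 0.979). Between IRI day 7 and IRI day 3 they belonged to Mrpl1, Mrpl53 and Mrpl45, each at 0.00 after rounding. Mrps36, a name kept from early ribosome lists, is now annotated as Kgd4, a subunit of the 2-oxoglutarate dehydrogenase complex. Its levels were 1.06, 1.43, 1.44 and 1.65 in IRI day 7 kidneys, 1.25, 1.44, 1.73 and 1.19 in IRI day 3 kidneys and 1.49, 1.58, 0.92 and 1.37 in sham kidneys, which overlapped in every pair of groups (0.06 ± 0.19 (SE), adjusted p = 0.802 by limma at IRI day 3). Neither Mrps14 nor Mrps28 was tested. Mrps14 was well above background on 3 of 4 IRI day 3 arrays and on no other array. Mrps28 was so on 2, 3 and 3 of 4 arrays at IRI day 7, at IRI day 3 and in sham.

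Few members passed the threshold at IRI day 7 against sham. The 3 that did, Mrpl13, Mrpl41 (by its brighter probe only) and Mrps10, are described above, and each was also called at IRI day 3. The Mrpl13 call held in all 12 fits that left out 1 array and with the slide, the scan or the replicate number as a block. The Mrpl41 call was lost under each of these blocks, and the Mrps10 call with the slide as a block. All IRI day 7 arrays lay below all sham arrays for 5 members that did not pass the threshold, namely Mrps34, Mrpl10, Mrps15, Mrpl34 and Mrps23 (adjusted p from 0.0655 for Mrps34 to 0.264 for Mrps23 by limma). In either direction, IRI day 7 and sham did not overlap for 7 of the 68 tested members, against 21.7% of all genes.

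Set directly against IRI day 3, IRI day 7 kidneys had higher levels of Mrps15 (0.51 ± 0.15 (SE), adjusted p = 0.0262 by limma) and, by its brighter probe, Mrpl10 (0.48 ± 0.13 (SE), adjusted p = 0.0176 by limma). Both were among the members that had fallen at day 3. The other Mrpl10 probe gave -0.28 ± 0.22 (SE), adjusted p = 0.355 in this comparison by limma. Lower at IRI day 7 than at IRI day 3 were Mrpl21 (-0.53 ± 0.15 (SE), adjusted p = 0.0208), Mrpl55 (-0.50 ± 0.15 (SE), adjusted p = 0.0231) and Mrpl23 (-0.45 ± 0.15 (SE), adjusted p = 0.0399), all by limma. Mrpl4, which lines the peptide tunnel (probe at chr8:20031782-20031841, plus strand, rn4), had levels of -3.68, -3.26, -2.62 and -3.59 in IRI day 7 kidneys, -2.32, -2.45, -2.23 and -2.10 in IRI day 3 kidneys and -2.42, -2.89, -2.74 and -4.13 in sham kidneys. Its IRI day 3 arrays were above every IRI day 7 array and overlapped the highest sham array. Its log2 difference was -1.01 ± 0.34 (SE), adjusted p = 0.0388 by limma, or 2.02-fold lower at day 7. Of its 4 day 7 arrays 3 were well above background, and normexp gave -0.08. Against sham its day 3 value was 0.77 ± 0.34 (SE), adjusted p = 0.0664. Mrpl49 had levels of -4.22, -3.55, -3.86 and -4.00 in IRI day 7 kidneys, -3.06, -2.85, -3.42 and -3.27 in IRI day 3 kidneys and -3.52, -2.84, -3.71 and -3.62 in sham kidneys and was well above background on 1 of 4 IRI day 7 arrays. Its fitted log2 difference was -0.76 ± 0.22 (SE), adjusted p = 0.0227 by limma, against day 7 signal mostly at background. It turned to 0.31 under normexp background correction, and was 0.043 when spots below local background were left out of that correction. None of these 7 calls held in all 12 fits that left out 1 array. Mrpl10 was lost without IRI day 7 replicate 4 or IRI day 3 replicate 2, and Mrpl55 without IRI day 7 replicate 2 or 3 or IRI day 3 replicate 4. The other 5 calls were each lost without any of 4 to 7 arrays of the injured groups (largest adjusted p from 0.0572 for Mrpl10 to 0.117 for Mrpl23 by limma).

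For 11 members several probes were printed on the array, and for 3 of them the fitted log2 fold changes of the probes at IRI day 3 were over 1 apart (for Mrpl50, through values mostly not well above background). The 60-base probe sequences are shown because they determine which transcript stretch each value came from. The brighter probe stood for the gene in all counts above. Sequences are those deposited by the authors, with the rn4 position they give, and the exon, intron or UTR of each position was not analysed here.
Mrpl40 brighter probe (chr11_random:1149328-1149387, plus strand): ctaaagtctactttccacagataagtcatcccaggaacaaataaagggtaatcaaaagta
Mrpl40 other probe (chr11_random:1150898-1150957, plus strand): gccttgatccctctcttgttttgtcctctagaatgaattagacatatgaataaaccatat
Mrpl50 brighter probe (chr5:66262841-66262900, minus strand): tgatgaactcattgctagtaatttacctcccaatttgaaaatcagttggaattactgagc
Mrpl50 other probe (chr5:66261569-66261628, minus strand): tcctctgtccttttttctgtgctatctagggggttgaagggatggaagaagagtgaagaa
Mrps21 brighter probe (chr2:190646260-190646319, minus strand): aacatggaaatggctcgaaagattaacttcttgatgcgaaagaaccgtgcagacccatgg
Mrps21 other probe (chr2:190652935-190652994, minus strand): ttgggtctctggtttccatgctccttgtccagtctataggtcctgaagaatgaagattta
The probes of a pair did not overlap, and the longest run of bases they shared was 6 for Mrpl40, 5 for Mrpl50 and 6 for Mrps21.

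With the other Mrpl40 probe the levels were -2.77, -1.83, -1.55 and -1.82 in IRI day 7 kidneys, -2.28, -2.54, -2.43 and -2.44 in IRI day 3 kidneys and -2.26, -2.95, -3.24 and -3.42 in sham kidneys. This probe gave 0.54 ± 0.28 (SE), adjusted p = 0.122 at IRI day 3 and 0.97 ± 0.28 (SE), adjusted p = 0.0347 at IRI day 7 in a limma fit of all probes. It thus passed the threshold as higher at IRI day 7, while the brighter probe gave -0.39 ± 0.19 (SE), adjusted p = 0.172 in the same limma fit. The other probe was dim and well above background on 3 of 4 sham arrays, which limits its call. The call of Mrpl40 therefore depends on the probe.

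The other Mrpl50 probe was well above background on 0 of 4 IRI day 7 arrays, 1 of 4 IRI day 3 arrays and all 4 sham arrays. It was at least 1.77-fold lower at IRI day 7 than in sham, where only a bound could be had. At IRI day 3 a single array measured it, so no size is given for that group. The brighter Mrpl50 probe, well above background on all 12 arrays, gave 0.18 ± 0.21 (SE), adjusted p = 0.476 at IRI day 3 by limma.

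The other Mrps21 probe had levels of -1.32, -1.40, -2.61 and -1.95 in IRI day 7 kidneys, -1.83, -2.43, -1.77 and -3.42 in IRI day 3 kidneys and -0.71, -0.54, -1.82 and -0.73 in sham kidneys. It fell at IRI day 3 (-1.41 ± 0.42 (SE), adjusted p = 0.0123 by limma), and the brighter probe gave 0.28 ± 0.18 (SE), adjusted p = 0.204. Smaller disagreements touched calls as well, for Mrpl10 and Mrpl41 as given above and for Mrpl17, Mrpl2 and Mrpl54 at IRI day 3. For Mrpl17 the brighter probe gave 0.16 ± 0.15 (SE), adjusted p = 0.363, and the other 0.89 ± 0.19 (SE), adjusted p = 0.00218, both by limma. That other probe had values on 3 of 4 IRI day 3 arrays. For Mrpl2 they gave -0.72 ± 0.18 (SE), adjusted p = 0.006, and -0.52 ± 0.22 (SE), adjusted p = 0.0596 by limma. For Mrpl54 they gave 0.35 ± 0.16 (SE), adjusted p = 0.0795, and 0.45 ± 0.16 (SE), adjusted p = 0.0299 by limma.

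**Figure D3:**
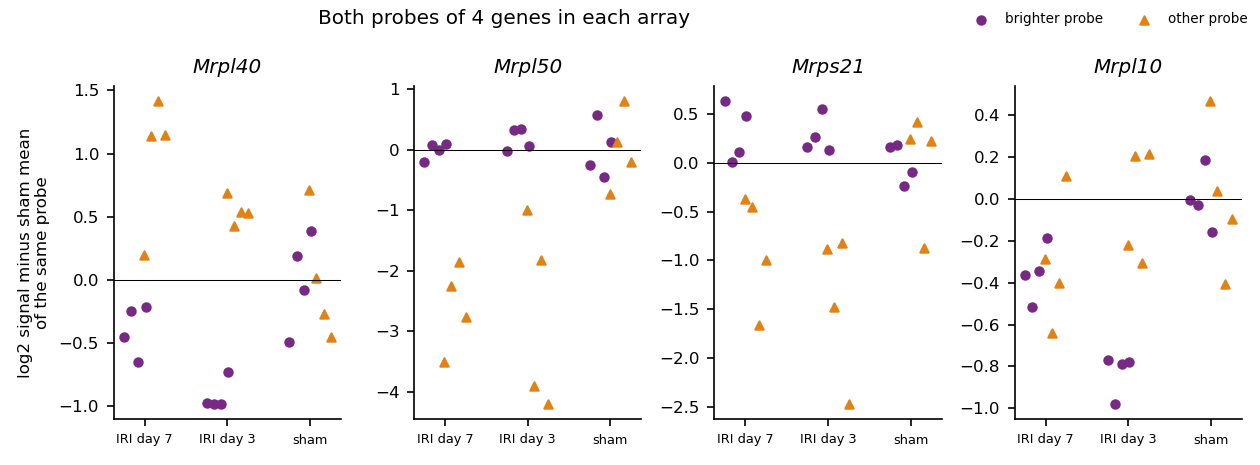
Level on each array relative to the same probe's sham mean, in log2, for the brighter probe (circles) and the other probe (triangles) of Mrpl40, Mrpl50, Mrps21 and Mrpl10, with IRI day 7 left, IRI day 3 in the middle and sham right. For Mrps21 the triangles fall at IRI day 3 while the circles stay nearer 0, for Mrpl40 the symbols move apart, and the low Mrpl50 triangles of the injured groups are mostly not well above background.

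Promoters were read from RefSeq (build GRCr8) as the 250 bases before and 50 after each annotated start, and 56 of the 70 members matched. On both strands, 3 fixed motifs were searched that factors known to drive nuclear genes of mitochondria bind. The core CCGGAAG, bound by ETS factors including GABP, was in 18 of 56 member promoters (32.1%) and in 9.22% of all 27457 promoters. The NRF1 site GCGCANGCG was in 11 (19.6%) and in 6.26% of all, and the YY1 core AAGATGGCG in 9 (16.1%) and in 1.93% of all. The last 3 letters of the first motif are the first 3 of the third, so 1 stretch can match both. At least 1 of the 3 motifs was in 31 member promoters (55.4%), against 15.5% of all, and the median GC content was 55.8% in members and 52.3% in all.

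Motif presence is set beside the IRI day 3 calls as a description. The ETS core was in 3 of 10 members that rose, 1 of 8 that fell and 14 of 37 that were not called. The NRF1 site was in 2 of 10, 1 of 8 and 8 of 37, and the YY1 core in 3 of 10, 1 of 8 and 5 of 37. Shown are the 5 called members with the largest fitted rises at IRI day 3, each with its GRCr8 position, in lower case with motif matches in capitals.
Mrps18a (chr9:22367331-22367630, minus strand): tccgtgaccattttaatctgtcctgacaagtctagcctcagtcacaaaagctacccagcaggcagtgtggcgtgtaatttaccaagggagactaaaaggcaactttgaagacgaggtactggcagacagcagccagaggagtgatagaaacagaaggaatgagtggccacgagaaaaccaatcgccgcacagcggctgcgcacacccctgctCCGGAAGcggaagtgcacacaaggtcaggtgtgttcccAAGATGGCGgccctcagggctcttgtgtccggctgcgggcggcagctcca
Mrps27 (chr2:32473954-32474253, plus strand): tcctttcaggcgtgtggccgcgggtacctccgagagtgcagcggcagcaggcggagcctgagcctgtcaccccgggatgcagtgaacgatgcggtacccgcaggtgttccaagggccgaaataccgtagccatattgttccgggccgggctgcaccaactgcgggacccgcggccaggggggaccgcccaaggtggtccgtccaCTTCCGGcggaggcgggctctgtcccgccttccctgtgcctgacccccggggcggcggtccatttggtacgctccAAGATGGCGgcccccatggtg
Mrps5 (chr3:135274083-135274382, plus strand): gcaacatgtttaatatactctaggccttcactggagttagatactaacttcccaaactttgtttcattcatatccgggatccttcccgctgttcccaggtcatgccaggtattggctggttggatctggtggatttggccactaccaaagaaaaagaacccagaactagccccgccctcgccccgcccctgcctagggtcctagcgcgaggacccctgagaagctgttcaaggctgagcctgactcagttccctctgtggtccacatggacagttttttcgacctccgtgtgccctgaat
Mrpl23 (chr1:207116680-207116979, plus strand): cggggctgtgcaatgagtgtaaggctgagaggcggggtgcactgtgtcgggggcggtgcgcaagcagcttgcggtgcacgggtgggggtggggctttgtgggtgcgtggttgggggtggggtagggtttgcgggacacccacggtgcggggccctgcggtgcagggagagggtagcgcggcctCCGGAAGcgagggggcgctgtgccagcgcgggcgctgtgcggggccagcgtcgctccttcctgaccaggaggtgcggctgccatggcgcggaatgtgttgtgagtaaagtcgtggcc
Mrpl46 (chr1:142116981-142117280, minus strand): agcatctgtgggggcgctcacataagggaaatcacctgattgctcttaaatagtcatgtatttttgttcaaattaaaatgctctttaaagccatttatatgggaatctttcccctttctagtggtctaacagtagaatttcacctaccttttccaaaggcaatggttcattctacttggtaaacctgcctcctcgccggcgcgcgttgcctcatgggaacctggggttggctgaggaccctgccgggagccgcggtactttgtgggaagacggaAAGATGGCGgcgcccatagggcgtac
The Mrps18a and Mrps27 windows hold the ETS and the YY1 core, that of Mrpl23 holds the ETS core alone, that of Mrpl46 the YY1 core alone, and that of Mrps5 none of the 3 motifs. A match of letters is a description only.

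For 18 members another gene starts within 1000 bases on the opposite strand, in the GRCr8 annotation, and in 13 such pairs both genes were tested. At IRI day 3 both genes rose in 1 pair, both fell in 2, they moved in opposite directions in 2, only the member was called in 2, only the partner in 4 and neither in 2. Of all tested genes 24.2% rose and 33.1% fell at IRI day 3, and whether the genes of a pair move together was not tested. Members with several probes are given by the brighter one. Mrpl32 rose with its partner Psma2, a proteasome subunit, which gave 0.72 (adjusted p = 0.00405 by limma). Mrpl2 fell with the kinesin light chain gene Klc4 (-1.56, adjusted p = 3.5e-05 by limma), and Mrpl40 fell with Hira (-0.90, adjusted p = 0.00615 by limma). Mrps27 rose while its partner Ptcd2 fell (-0.47, adjusted p = 0.00907 by limma), and Mrpl41 rose while Pnpla7 fell (-0.81, adjusted p = 0.0115 by limma). Both of these member calls are limited. Mrps27 was well above background on 2 of 4 sham arrays, and normexp background correction turned its value to -0.48. The other Mrpl41 probe gave 0.20, adjusted p = 0.458 by limma. Mrpl46 starts 234 bases from another member, Mrps11, which gave -0.20 (adjusted p = 0.48 by limma).

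The products of the mitochondrial ribosome work together with nuclear-encoded subunits. Of 86 tested nuclear genes of the respiratory chain and ATP synthase, 2 rose and 44 fell at IRI day 3 (53.5% called, against 57.3% of all genes), with a median log2 fold change of -0.37. That median was -0.09 under total signal scaling and 0.07 under normexp background correction, so the list's direction against sham depends on the setting. The genes that fell included Cox8b, a cytochrome c oxidase subunit (-2.55 ± 0.27 (SE), adjusted p = 2.11e-05 by limma), and the complex I subunits Ndufs7 (-1.20 ± 0.16 (SE), adjusted p = 9.16e-05 by limma) and Ndufv3 (-1.17 ± 0.18 (SE), adjusted p = 2.14e-04 by limma). Cox6a2, an oxidase subunit best known from muscle, was not well above background on any sham array and was at least 2.18-fold higher at IRI day 3. At IRI day 7 against sham none of the 86 rose and 1 fell (1.16% called, against 18.8% of all genes), with a median of 0.01. Against IRI day 3, IRI day 7 kidneys were higher for 40 and lower for 1 (47.7% called), with a median of 0.39. Of all genes 31.4% were called in that comparison, 18% as higher.

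Most cytosolic ribosomal protein genes rose at IRI day 3. Of 83 tested, 57 rose and 2 fell (71.1% called), with a median of 0.64. Of all genes 57.3% were called, 24.2% as higher. Among them were Rps14 (1.66 ± 0.13 (SE), adjusted p = 5.23e-06 by limma) and Rpl5 (1.59 ± 0.16 (SE), adjusted p = 1.56e-05 by limma). At IRI day 7, 17 were higher than in sham and none lower (20.5%, against 8.21% of all genes higher), with a median of 0.23. Against IRI day 3, 34 were lower at IRI day 7 and none higher (41.0%, against 13.4% of all genes lower), with a median of -0.30. Cytosolic ribosomal protein genes have many near-identical processed copies in the rat genome, so a probe for one may also read others.

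The median member therefore lay between the medians of both lists at IRI day 3. Within each array, the median member minus the median respiratory gene, set to a mean of 0 in sham, was -0.0045 ± 0.098 at IRI day 7, 0.37 ± 0.12 at IRI day 3 and 0 ± 0.025 in sham (SD, n = 4 each). All 4 IRI day 3 arrays, at 0.29 to 0.55, lay above all IRI day 7 arrays, at -0.12 to 0.12, and all sham arrays, at -0.03 to 0.03. The median member minus the median cytosolic ribosomal protein gene was -0.13 ± 0.13 at IRI day 7, -0.45 ± 0.025 at IRI day 3 and 0 ± 0.087 in sham (SD, n = 4 each). IRI day 3 arrays, at -0.48 to -0.43, again lay apart from IRI day 7 arrays, at -0.28 to 0.04, and sham arrays, at -0.07 to 0.10. These gaps compare medians within an array and do not depend on a scale factor of the array. They can change with background correction. Under normexp the median log2 fold changes at IRI day 3 were 0.07 for respiratory genes, 0.18 for members and 1.05 for cytosolic ribosomal protein genes. In the fit used above they were -0.37, 0.11 and 0.64. The median level of the members themselves was 0.82 ± 0.16 at IRI day 7, 0.86 ± 0.069 at IRI day 3 and 0.73 ± 0.15 in sham, and these ranges overlapped.

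**Figure D4:**
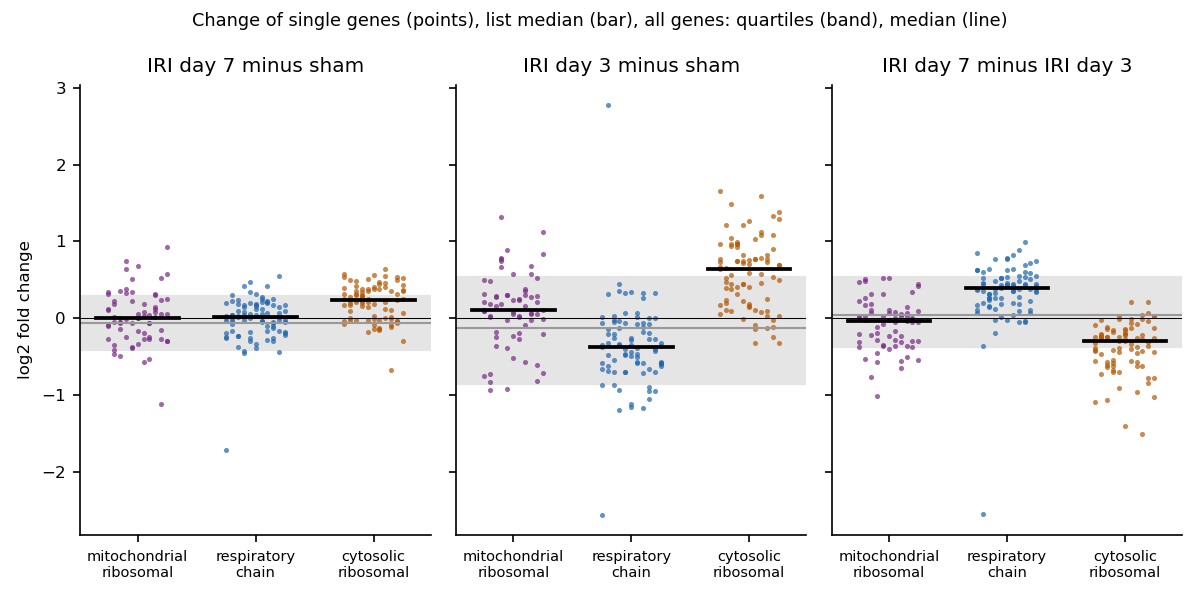
Log2 fold changes of the tested mitochondrial ribosomal, respiratory chain and cytosolic ribosomal protein genes in 3 panels, IRI day 7 minus sham, IRI day 3 minus sham and IRI day 7 minus IRI day 3; points are genes, the bar is the list's median, and the grey line and band are the median and quartiles of all tested genes. In the IRI day 3 panel the medians stand at 0.11, -0.37 and 0.64.

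**Figure D5:**
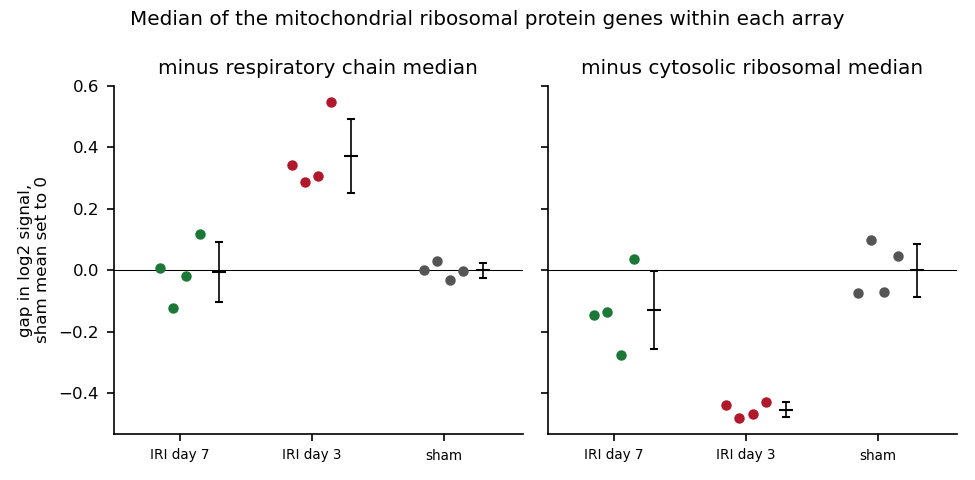
Difference within each array, in log2, between the median member and the median respiratory chain gene or the median cytosolic ribosomal protein gene, with the sham mean set to 0; points are arrays, IRI day 7 left, IRI day 3 in the middle, sham right. IRI day 3 arrays lie at 0.29 to 0.55 for the first difference and at -0.48 to -0.43 for the second, apart from all other arrays.

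Of 6 tested proteins of the mitochondrial ribosome whose names in the scanner files are not of the Mrpl or Mrps form, 3 fell at IRI day 3 and none rose, against 33.1% of all genes lower. Dap3, a GTP-binding protein of the small subunit, gave -0.65 ± 0.18 (SE), adjusted p = 0.00824, the RNA-binding protein Ptcd3 gave -0.78 ± 0.25 (SE), adjusted p = 0.0164 and Mrpl58, which releases stalled peptides and stands as Ict1 in the files, gave -0.34 ± 0.12 (SE), adjusted p = 0.0281, all by limma. Among 16 translation factors 1 rose and 2 fell (18.8% called, against 57.3% of all genes), with a median of -0.14. The gene that rose was Slirp, whose protein stabilises mitochondrial mRNA (0.81 ± 0.14 (SE), adjusted p = 4.95e-04 by limma), and Taco1, an activator of translation of an oxidase subunit, fell (-1.36 ± 0.36 (SE), adjusted p = 0.00713 by limma), as did the ribosome recycling factor Gfm2 (-0.70 ± 0.19 (SE), adjusted p = 0.00725 by limma). Lrpprc, the partner of Slirp, gave -0.11 ± 0.16 (SE), adjusted p = 0.564.

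Of 16 tested genes that assemble the ribosome 1 rose and 4 fell (31.25% called, against 57.3% of all genes), with a median of -0.03. The GTPase Mtg2 rose (0.94 ± 0.23 (SE), adjusted p = 0.00406 by limma), and the ribosomal RNA chaperone Eral1 (-1.24 ± 0.47 (SE), adjusted p = 0.0383 by limma) and the ribosomal RNA methyltransferase Nsun4 (-0.90 ± 0.19 (SE), adjusted p = 0.00193 by limma) fell. Of 15 mitochondrial tRNA synthetases 3 fell and none rose (20% called), with a median of -0.35, namely Wars2 (-0.78, adjusted p = 0.00357), Ears2 (-0.70, adjusted p = 0.0422) and Tars2 (-0.63, adjusted p = 0.0147), all by limma. Of 11 genes for transcription and replication of mitochondrial DNA 4 fell and none rose, with a median of -0.43, and the 36.4% lower was near the 33.1% of all genes. The replicative helicase Twnk (-0.96 ± 0.15 (SE), adjusted p = 1.91e-04 by limma) and the RNA polymerase Polrmt (-0.82 ± 0.24 (SE), adjusted p = 0.011 by limma) were among them, and the DNA-packaging factor Tfam gave 0.19 ± 0.14 (SE), adjusted p = 0.243. Of 18 import and mass genes 5 rose and 3 fell at IRI day 3 (44.4% called), with a median of 0.02. They included Tomm22, an import receptor that rose (0.62, adjusted p = 0.0043 by limma), and Hspa9, the matrix chaperone that fell (-0.84, adjusted p = 0.00159 by limma).

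Of 10 regulators of mitochondrial biogenesis 3 rose and 2 fell at IRI day 3, a called share near that of all genes. Myc, a growth regulator that drives ribosome genes, rose (2.40 ± 0.31 (SE), adjusted p = 6.71e-05 by limma) and was lower again at IRI day 7 than at IRI day 3 (-1.61 ± 0.31 (SE), adjusted p = 0.00364 by limma). The coactivator gene Pprc1 rose (0.65 ± 0.18 (SE), adjusted p = 0.00955 by limma), and so did Gabpa, which encodes the DNA-binding part of GABP (1.8 ± 0.68 (SE), adjusted p = 0.0378 by limma). The Gabpa call was lost without any 1 of the IRI day 3 arrays or of sham replicates 2 and 3 (adjusted p up to 0.11 by limma). Under normexp background correction its value was 0.04. Ppargc1b (-1.99 ± 0.44 (SE), adjusted p = 0.00244 by limma) and Esrra (-0.69 ± 0.17 (SE), adjusted p = 0.00516 by limma), a coactivator and a nuclear receptor that work together on respiratory genes, fell. Nrf1 gave -0.06 ± 0.22 (SE), adjusted p = 0.82 and Ppargc1a -0.54 ± 0.23 (SE), adjusted p = 0.0595, and Ppargc1a was higher at IRI day 7 than at IRI day 3 (0.97 ± 0.23 (SE), adjusted p = 0.00957 by limma).

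The counts of members depend on how the arrays are put on 1 scale. Scaling to the total signal moved the median of all genes at IRI day 3 to 0.15. It gave 31 higher and 3 lower members with a median of 0.38, or 50% called against 57.3% of all genes. Of the 18506 genes 6211 were higher and 4394 lower in this setting, so the balance of directions among members depends on the scale. With normexp background correction the median of all genes was -0.41, 17.1% of all genes were called, and 3 members (Mrpl13, Mrpl23 and Mrps18a) were higher and 0 lower. In all 26 settings the members' called share was below that of all genes in each comparison, and at IRI day 3 the median order of respiratory genes, members and cytosolic ribosomal protein genes, low to high, was the same. The arrays lay on 3 slides that each carried all 3 groups, and with the slide as a block 10 members were higher and 9 lower at IRI day 3, with a median of 0.15.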

How the data were processed

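Total RNA of 12 left kidneys was hybridised to 1-colour Cy3 Agilent arrays, 1 array a rat, with 4 arrays in each group. Per the file headers, the authors deposited scanner output of Agilent Feature Extraction 9.5.1.1, whose processed signal is a background-corrected intensity for each spot, with probe positions on rn4. The deposited flags (0 or 1) for spots above background, saturated or outlying were used as given. A table of the authors' processed log2 values was also deposited, and neither labels nor headers describe its normalization. Its columns followed the log2 scanner intensity in the same direction after each probe was centred (lowest r 0.998, largest probe median 4.8e-07), so levels are gone from it and the order of steps is unknown. The column medians were 0.013, 0.036, 0.0051 and 0.12 at IRI day 7, -0.11, -0.16, 0.0020 and -0.21 at IRI day 3, and -0.0011, -0.030, 0.30 and 0.011 in sham.

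From the intensities, log2 signal minus each array's 75th percentile was computed, control and outlying spots were left out, and spots of a probe were averaged. A probe was kept where every array of some group showed it well above background (21057 probes, 18506 genes), and the brightest probe stood for a gene. Group means were fitted to all 12 arrays with limma 3.58.1 (R 4.3.3), with Benjamini-Hochberg adjustment over all genes. The limma calculation was tested on simulated data. Gene names were updated through RefSeq tables (GRCr8), which also gave the promoters.

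The members, gene lists and tests were chosen with earlier results of these data known. Named with full values were the called members with the 5 largest rises and 5 largest falls in each comparison, the 3 smallest changes, members whose probes disagreed by over 1 in log2 fold change, the stalk proteins, Mrps18 copies and Mrps36. The remaining called members are given by log2 fold change, and from each other gene list up to 4 called genes with the largest changes plus fixed regulators could be named. Same-numbered arrays did not deviate together (r from -0.331 to 0.142 over 12 pairs, 2 of them over 0.1), so replicate numbers were not taken as pairs. Slide, scan, background correction, scaling, filter, probe choice and each array left out were tried as alternatives.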

Additional observations from a re-analysis of the deposited data

Results flagged for a closer look

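In 5 of 90 groups of 4 arrays 1 array stood apart by Dixon's ratio, and chance alone marks about 1 in 20 groups. Mrpl10 was at 2.90 on IRI day 3 replicate 2, below the other IRI day 3 arrays at 3.09 to 3.11. Mrpl40 was at 0.395 on IRI day 3 replicate 4, above the others at 0.146 to 0.154, and Mrps15 was at 3.55 on IRI day 3 replicate 1, above the others at 3.21 to 3.25. In sham, Mrpl47 was at -0.129 on replicate 3, above the others at -1.09 to -0.953, and Mrps23 was at 0.157 on replicate 4, above the others at -0.0603 to -0.0252.

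For 7 members (10.3%, against 31.4% of all genes) the change at IRI day 7 differed from that at IRI day 3, by the direct test between both injured groups in limma. None of these 7 calls held in all 12 fits that left out 1 array. For Mrpl10, by its brighter probe only, the difference, day 7 minus day 3, was 0.48, with -0.35 at day 7 and -0.83 at day 3 against sham, and for Mrps15 it was 0.51, with -0.41 and -0.93. For Mrpl23 it was -0.45, with 0.33 at day 7 and 0.78 at day 3, and for Mrpl55 it was -0.50, with 0.08 and 0.58. Mrpl21 gave -0.53, with -0.05 at day 7 and 0.48 at day 3, Mrpl4 gave -1.01, with -0.24 and 0.77, and Mrpl49 gave -0.76, with -0.49 and 0.27. At IRI day 7, Mrpl4 was well above background on 3 of 4 arrays and Mrpl49 on 1 of 4. Normexp background correction turned the Mrpl49 difference to 0.31.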

How the results depend on the processing

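Of 33 called results on single genes, 15 held in all 12 fits that left out 1 array, and 4 held under all 25 alternatives, namely Mrpl13, Mrpl23, Mrps18a and Myc at IRI day 3 against sham. Leaving out 1 array gave 8 to 13 members higher and 7 to 11 lower at IRI day 3 against sham (median 0.06 to 0.16), with the 8 obtained without IRI day 3 replicate 4. It gave 1 to 3 higher and 0 to 2 lower at IRI day 7 against sham (median -0.08 to 0.08), and 0 to 3 higher and 1 to 6 lower at IRI day 7 against IRI day 3 (median -0.13 to 0.01).

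Normexp background correction left 3 higher and 0 lower members at IRI day 3 against sham, 0 and 0 at IRI day 7 against sham (median 0.20, with 0.492% of all genes called) and 0 and 0 between IRI day 7 and IRI day 3 (0.859% of all genes called). It turned Mrpl46 (-0.42), Mrps27 (-0.48) and Mrps5 (-0.18) at IRI day 3 against sham, and Mrpl49 at IRI day 7 against IRI day 3 (0.31). Without spots below local background, normexp gave 4 higher members at IRI day 7 against IRI day 3 and 0.043 for Mrpl49. Total signal scaling gave 31 higher and 3 lower at IRI day 3 against sham (median 0.38), with 57.3% of all genes called. At IRI day 7 against sham it gave 12 and 0 (median 0.25), with 3237 of the 18506 genes higher and 913 lower. Between IRI day 7 and IRI day 3, quantile normalization gave 4 higher, probes above background on all 12 arrays 3 lower, the slide as a block 3 lower, and a fit of only the groups compared 8 lower.

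At IRI day 7 against sham there was 1 member higher and 0 lower with no filter on dim probes, with the slide as a block, and in a fit of only the groups compared. There was 1 higher with the scan as a block, and 1 higher with the replicate number as a block. The mean over the probes of a gene gave 2 lower members at IRI day 7 against sham and -1.27 for Mrpl50 at IRI day 3 against sham, because its dimmer probe is averaged in, which was not well above background on 3 of 4 IRI day 3 arrays. Within slide 3 the median of members was 0.33 at IRI day 3 and 0.32 at IRI day 7 against sham, and within slide 2 it was -0.17 at IRI day 7. Beyond the mean over probes, the cause of these shifts was not tested. Signal close to background limits Mrps14, Mrps28, Mrps27, Mrps35, Mrpl4, Mrpl46, Mrpl49 and the dimmer probes of Mrpl40 and Mrpl50.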
